A study of Mus musculus with 4 samples.

Results

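Leukocytes from KPC tumors treated with the LTβR agonist alone were compared with leukocytes from untreated KPC tumors, by single-cell RNA-seq. All barcodes with 300 to 5000 detected genes and at most 6% of counts from mitochondrial genes entered the comparison. These were 7776 of 8730 deposited barcodes from untreated tumors and 14041 of 14634 from anti-LTβR-treated tumors, and together they made up 21817 of the 51841 cells that pass these limits in the series. The other cells of the series came from tumors given the STING agonist ADU-S100, with or without anti-LTβR. Tumors were subcutaneous grafts of a syngeneic pancreatic cancer line, KPC, made in mice whose alleles include Pdx1-Cre and Trp53 LSL.R172H/+, grown in male C57BL/6 hosts whose own immune system was intact. Hosts of the treated group received 4 intraperitoneal injections of 100 µg of the antibody 4H8, which binds and activates mouse LTβR, and the untreated group received none. The labels name no control antibody or vehicle. Tumors were resected on day 14. For each group 10 tumors were pooled before live CD45+ cells were sorted, so each group is 1 library, animals cannot be told apart, and no test between groups was possible. Mice were young adults, for which the study gives overlapping age ranges.

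LTβR is a receptor of the TNF receptor superfamily, found mainly on stromal, endothelial, epithelial and myeloid cells and largely lacking from lymphocytes, which instead display its ligand, lymphotoxin. Its engagement stabilizes the kinase NIK (Map3k14) and releases the noncanonical NF-κB factors p52 and RelB, and it also feeds the canonical arm through RelA. The pathway is known for organizing lymph nodes and, in tumors, tertiary lymphoid structures (TLS), through chemokines that draw B cells and naive T cells and through high endothelial venules.

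Counts are of unique molecular identifiers (UMIs), each standing for a captured mRNA molecule. Kept cells held 46791215 UMIs in the untreated library and 68238086 in the anti-LTβR library, with median UMIs per cell of 4653 and 3773 and median detected genes of 2028 and 1776, so treated cells were read less deeply. The libraries shared 32 cell barcodes. Cells were read in 3 gates defined by detected genes. The T gate required at least 2 of Cd3d, Cd3e and Cd3g, the B and plasma gate at least 2 of Cd79a, Cd79b, Ms4a1 and Mzb1, and the macrophage and monocyte gate a Csf1r UMI with no Cd3e or Cxcr2 UMI. Each gate carried most markers of its own lineage, with summed levels of 4815 and 4276 CPM (counts scaled to the summed total of the cells) for 11 T cell genes in the T gate, 32132 and 32673 CPM for 10 B and plasma cell genes in the B and plasma gate, and 19100 and 14796 CPM for 10 macrophage genes in the macrophage gate, untreated first. All intervals given are 95% intervals of counting error only, and they do not cover differences between mice, tumors or libraries.

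B lineage cells took a larger share of the leukocytes in the anti-LTβR library. The B and plasma gate held 62 untreated cells (0.797%, exact binomial interval 0.612 to 1.02%) and 424 treated cells (3.02%, 2.74 to 3.32%). The ratio of the shares was 3.79 (2.91 to 4.94). With a single gate gene required instead of 2, it was 1.31. The T gate held 1093 untreated cells (14.1%, 13.3 to 14.8%) and 1632 treated cells (11.6%, 11.1 to 12.2%), a ratio of 0.827 (0.770 to 0.888).

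Macrophages and monocytes were the main population in both libraries. Their gate held 3620 untreated cells (46.6%, 45.4 to 47.7%) and 6841 treated cells (48.7%, 47.9 to 49.6%), a ratio of 1.05 (1.02 to 1.08), which became 0.958 with stricter gates, so no direction is read. Cells in none of the gates were 38.9% and 37.4% of the libraries. Among all kept cells, a UMI of Flt3, a growth factor receptor of dendritic cells (DC), was detected in 6.89% (6.34 to 7.48%) of untreated and 4.55% (4.21 to 4.91%) of treated cells. S100a8, an abundant neutrophil transcript, was detected in 7.95% and 11.0%, and Cxcr2, the neutrophil chemokine receptor, in 4.87% and 5.60%. Ncr1, an activating receptor of natural killer cells, was detected in 3.50% and 3.83%, with a ratio whose interval of 0.949 to 1.26 holds 1.

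**Figure D1:**
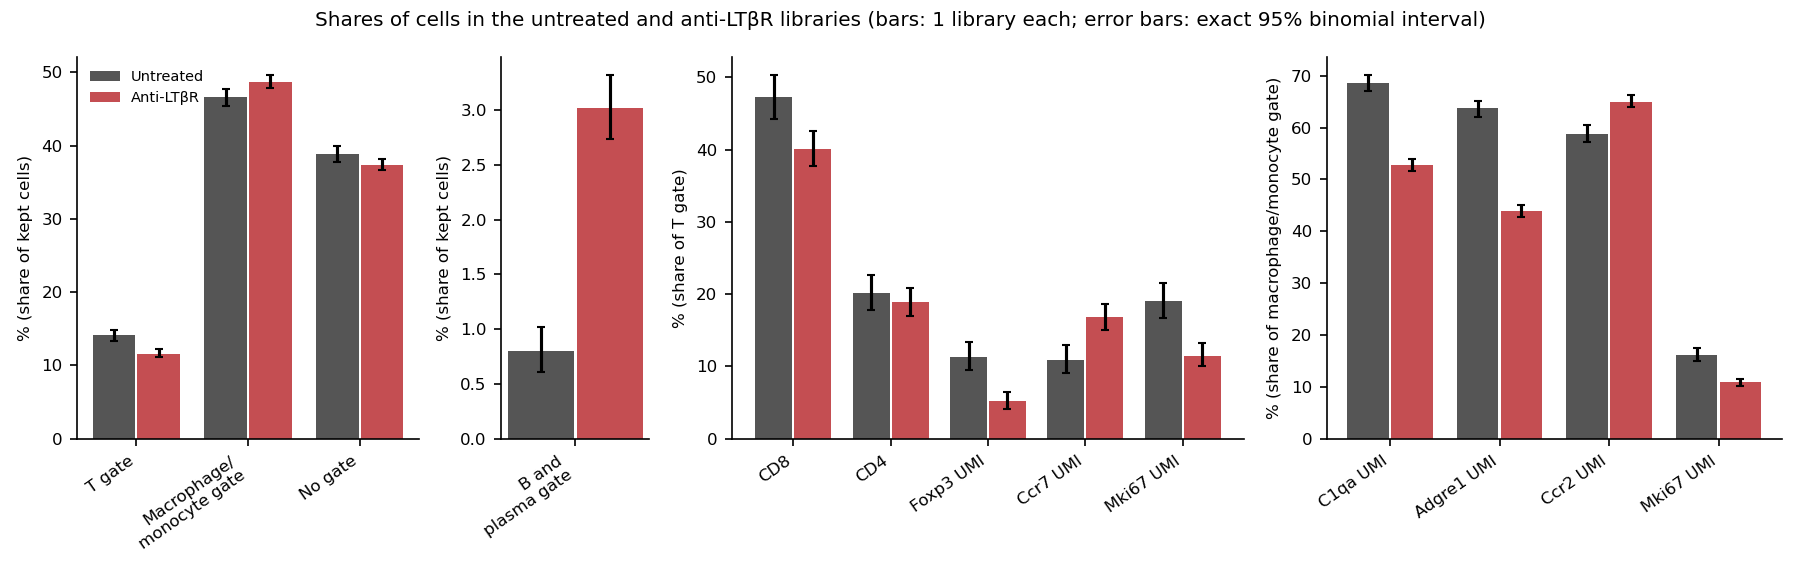
Shares of cells by gate (% of kept cells) and shares of cells within the T gate and the macrophage and monocyte gate that carry a UMI of a gene or pass the CD4 or CD8 rule (% of the gate), in the untreated and anti-LTβR libraries. Bars are single libraries and error bars exact 95% binomial intervals. The B and plasma gate was 0.797% of untreated and 3.02% of treated cells, and the C1qa share of the macrophage gate was 68.6% and 52.8%.

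Within the B and plasma gate, genes of naive and follicular B cells were higher after anti-LTβR, while genes of plasma cells and of the secretory pathway lay near equal. Genes were read where both libraries together gave 200 UMIs or more. Of 3043 such genes, 141 (4.63%) were more than 2-fold higher and 47 (1.54%) more than 2-fold lower in the treated cells. Immunoglobulin genes made up 66 of the 141 and 31 of the 47, which leaves 75 and 16 others. Levels in this gate are CPM of all UMIs other than those of immunoglobulin genes, which took 40.8% and 37.8% of the total. Since the untreated gate held only 62 cells, single cells weigh heavily there.

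Of the 16 follicular genes listed, 12 had enough UMIs and 8 of those 12 were more than 2-fold higher, with a median log2 ratio of 1.18 against 0.07 over all genes of the gate. Without Ms4a1, Cd79a and Cd79b, which chose the cells of the gate, 7 of 9 genes were past 2-fold and the median was 1.21. Pax5, the transcription factor that holds B cell identity, was at 60.1 CPM in untreated and 181 CPM in treated cells, a log2 ratio of 1.57, and Ebf1, which acts with it, was at 229 and 468 CPM (1.02). Both levels, summed over the gate, were higher in treated cells. Pax5 was detected in 12.9% and 27.4% of gate cells. Its log2 ratio was 1.12 in cells with an Ms4a1 UMI and −0.18 (−1.43 to 1.49) in cells without it. How far the list follows the share of cells with an Ms4a1 UMI was not tested. Of 9 alternative ways of processing the same libraries, Pax5 was past 2-fold in 8, with 0.64 when each cell had equal weight, and Ebf1 in 5, with 0.53 in gate cells with no UMI of Csf1r, Siglech, Trac, S100a8 or S100a9. The gate gene Ms4a1, which encodes CD20, was at 107 and 321 CPM (1.57), given as a description of the gate.

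Further genes of the follicular list were also past 2-fold. Bank1, a scaffold protein in B cell receptor signaling, was at 293 and 795 CPM, with a log2 ratio of 1.44 (exact binomial interval 1.21 to 1.68), and Cd22, an inhibitory coreceptor, at 52.6 and 124 CPM (1.21). Bach2, a repressor that holds back plasma cell differentiation, was at 88.3 and 196 CPM (1.14). Bank1 was past 2-fold in all 9 ways of processing, Bach2 in 7 and Cd22 in 6, with log2 ratios of 0.34 for Cd22 after thinning to 2000 UMIs per cell and 0.45 with equal weight for each cell. The signaling chains of the receptor itself, Cd79a (0.59) and Cd79b (0.36), both gate genes, were not past 2-fold. The median of the follicular list lay between 0.63 and 2.09 over the 9 ways of processing, or between 0.64 and 2.34 without its gate genes.

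The shares of gate cells with Ms4a1 or Mzb1 describe how cells entered the gate, since both genes belong to its rule, and nothing is read from them. A UMI of Ms4a1 was detected in 27.4% (16.9 to 40.2%) of untreated and 46.5% (41.6 to 51.3%) of treated gate cells, at median depths of 15656 and 9382 UMIs. Thinned to 2000 UMIs per cell, the shares were 18.2% of 33 cells and 41.7% of 259 cells. In the T gate, which should lack CD20, they were 0.183% and 0.245%, at median depths of 4288 and 3488 UMIs. Mzb1 was detected in 95.2% and 84.9% of gate cells. Plasma cell genes that the rule did not use were common in both libraries, with Jchain, the joining chain of IgM and IgA, in 79.0% and 67.0%, and Sdc1, which encodes CD138, in 53.2% and 47.4%.

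Plasma cell genes were near equal where follicular genes were higher. None of the 11 plasma cell genes with enough UMIs was past 2-fold in either direction, and their median log2 ratio was −0.11, or −0.07 over 10 genes without the gate gene Mzb1. Xbp1, the factor that drives the secretory program, was at 1935 and 2088 CPM (0.11). Jchain was at 25969 and 22413 CPM (−0.21). Of 21 genes for protein folding and transport in the endoplasmic reticulum, 0 were past 2-fold, with a median of −0.02. The median of both lists took either sign across the 9 ways of processing.

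The antigen presentation genes of B cells depended on the processing. Of 11 MHC class II genes with enough UMIs, 3 were more than 2-fold higher, and the median was 0.23 (−0.38 to 0.93 over the 9 ways of processing, with 1 change of sign). Ciita, the master activator of class II transcription, was at 33.8 and 88.1 CPM (1.34). H2-DMb2 and H2-Ob, subunits of the molecules that edit and restrain peptide loading, were at 24.4 and 84.5 CPM (1.74) and at 37.6 and 80.6 CPM (1.07). None of the 3 was past 2-fold after thinning, with log2 ratios of 0.32, 0.03 and 0.23 for Ciita, H2-DMb2 and H2-Ob. The class II chains H2-Aa, H2-Ab1 and H2-Eb1 were not past 2-fold.

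Antibody genes in this gate rested on few cells. Of 11 immunoglobulin constant genes with enough UMIs, 6 were more than 2-fold higher, on the CPM scale that leaves antibody genes out of the total. Ighm, the IgM heavy chain, was at 17327 and 59656 CPM (1.78), and Ighg2b at 5305 and 30160 CPM (2.51). Ighg1, at 109902 and 87797 CPM (−0.32), and Igha, at 37082 and 27408 CPM (−0.44), were not past 2-fold. Without the 3 highest cells of each gene, Ighm was at a log2 ratio of 5.03, Ighg2b at 5.34 and Igha at 0.60, and over all deposited barcodes Ighg1 was at 0.15, so that no direction is read for Igha and Ighg1. Ighg3 was at 0 in all untreated cells and at 498 CPM in treated cells, but 96.1% of those UMIs came from a single cell. The subclass genes are close in sequence, and how the counting divided shared reads between them was not tested.

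**Figure D2:**
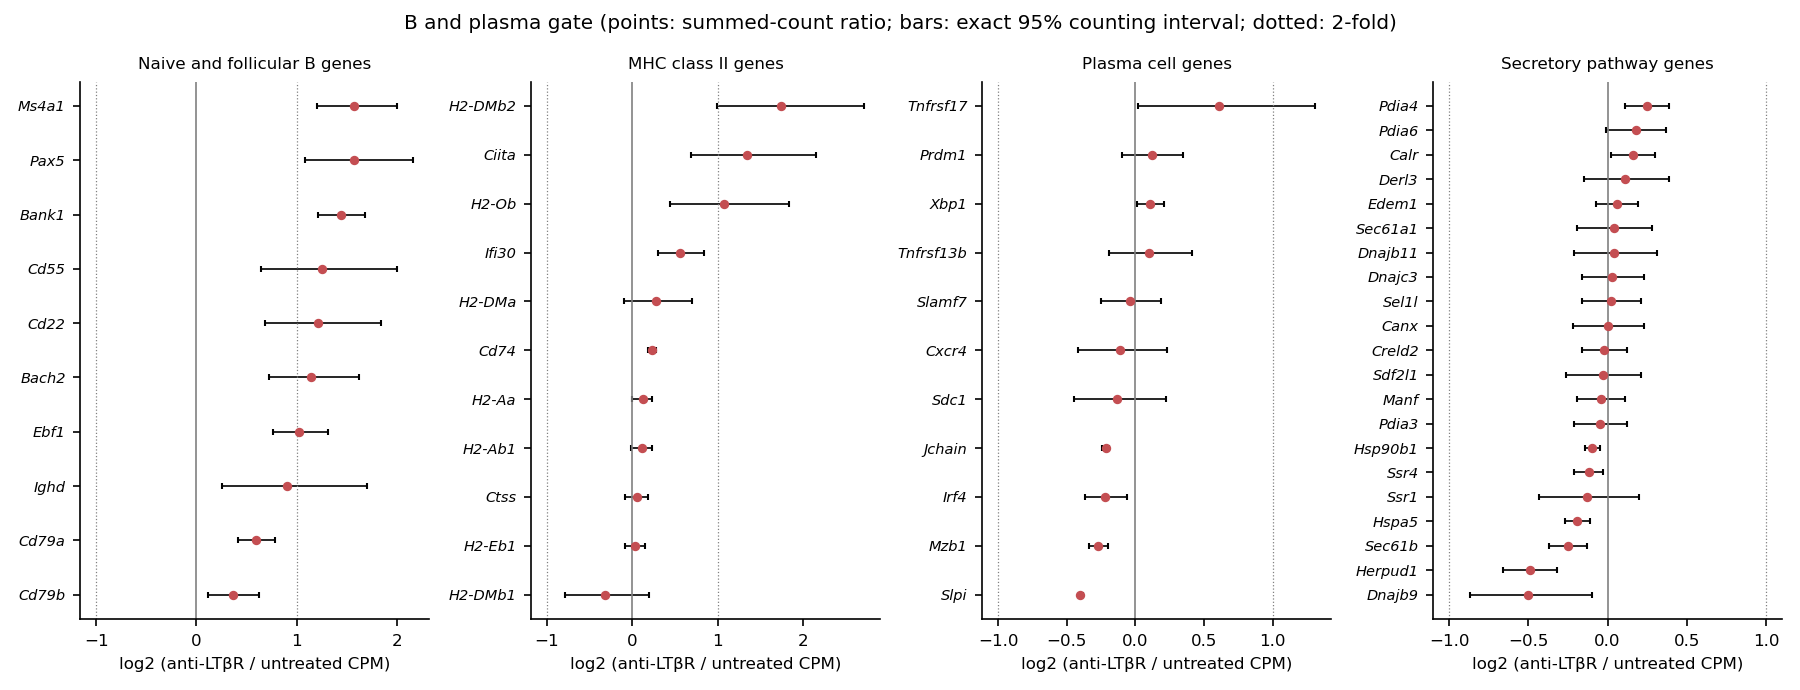
Log2 ratios (anti-LTβR over untreated CPM) of follicular, MHC class II, plasma cell and secretory pathway genes in the B and plasma gate, with 62 untreated and 424 treated cells. Points are ratios of summed counts, bars exact 95% counting intervals and dotted lines 2-fold; follicular genes lie mostly beyond 2-fold, with a median of 1.18 over the whole list, and plasma cell genes around −0.11.

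Beyond the lists, a fixed rule took the 8 genes furthest above and the 8 furthest below equality, ranked by the interval bound nearest 0. Fcrl5, an Fc receptor-like protein of B cells, was at 11.3 and 92.0 CPM (2.92, 1.89 to 4.49). Plscr1, a phospholipid scramblase, was at 33.8 and 160 CPM (2.21). Myc, a growth-promoting transcription factor, was at 15.0 and 73.4 CPM (2.20, 1.28 to 3.52). Klf2, which controls lymphocyte homing and quiescence, was at 107 and 340 CPM (1.65), but at log2 ratios of 0.50 after thinning and 0.94 with equal weight for each cell. Sox5 was at 115 and 344 CPM (1.58) and Immp2l, a mitochondrial peptidase subunit, at 84.5 and 261 CPM (1.61). Bank1 is also among the 8 higher genes, and 7 of the 8 lay on the same side both in cells with and in cells without an Ms4a1 UMI. The exception was Sox5, at 1.36 with that UMI and −0.35 without it. Bank1 was at 1.18 and 0.16 and Fcrl5 at 2.44 and 0.09, and 3 of the 8 were past 2-fold in both.

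The 8 lower genes depended more on which cells were counted. Mpeg1, which encodes the pore-forming protein perforin-2, was at 301 and 121 CPM (−1.32), and Irf8, a transcription factor of B cells and dendritic cells, at 265 and 119 CPM (−1.15). In gate cells with no UMI of Csf1r, Siglech, Trac, S100a8 or S100a9, their log2 ratios were 1.90 and 1.49, and so reversed. In cells with an Ms4a1 UMI they were 0.87 and 1.35, and in cells without it −1.92 and −2.05. The histone genes H1f0, at 280 and 122 CPM (−1.20), H1f4, at 440 and 214 CPM (−1.04), and H4c4, at 180 and 87.7 CPM (−1.04), were also lower, and H4c4 reached 0.18 without its 3 highest cells.

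The lower genes also held the interferon-inducible GTPase Igtp, at 122 and 50.3 CPM (−1.29), and Plp2, at 118 and 54.5 CPM (−1.12). Igtp was at −0.23 without cells that met more than 1 gate, and H1f0 at −0.71 and H1f4 at −0.62 without their 3 highest cells. Of the 8 lower genes, 3 lay on the same side with and without an Ms4a1 UMI. Genes of other lineages differed between the gates too, and their part in these values was not tested. A set of 11 dendritic cell markers summed to 1044 CPM in the untreated gate and 427 CPM in the treated gate, with Xcr1 at 0 in both and Ccl17 and Ccl22 at 0 in the untreated gate, and Bst2, which interferon also induces, took 680 and 365 CPM of these sums. Siglech, a marker of plasmacytoid DC, was detected in 8.06% and 1.42% of gate cells, but after thinning in 0 of 33 untreated cells, with an upper bound of 10.6%, and in 1.16% of 259 treated cells, so no direction is read. A set of 10 macrophage markers summed to 3518 and 2533 CPM, with Csf1r detected in 19.4% and 18.4% of gate cells.

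Within the T gate, 4 of 12 genes of naive and memory T cells were more than 2-fold higher after anti-LTβR, and 2 genes of regulatory T (Treg) cells and the inhibitory receptor gene Pdcd1 were more than 2-fold lower. Of 7798 genes with enough UMIs, 74 (0.949%) were more than 2-fold higher and 44 (0.564%) more than 2-fold lower. CD8 cells, with a Cd8a or Cd8b1 UMI and none of Cd4, made up 47.3% and 40.1% of the gate (ratio 0.848, 0.778 to 0.925). CD4 cells, defined the other way round, made up 20.1% and 18.9% (ratio 0.938, 0.803 to 1.09), and Trdc, the constant region of the δ chain of γδ T cells, was detected in 8.05% and 10.3%.

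Of the 12 genes listed for naive and memory T cells, 11 had a log2 ratio above 0 and 4 were more than 2-fold higher. The list median was 0.94 against 0.01 over all genes of the gate, and between 0.74 and 1.09 over 9 ways of processing. Klf2, which directs the expression of homing receptors, was at 84.4 and 211 CPM, with a log2 ratio of 1.32 (1.17 to 1.47). Lef1 and Satb1, nuclear factors of T cell development, were at 129 and 267 CPM (1.05) and at 316 and 634 CPM (1.00). Ly6c2, a surface protein of memory T cells, was at 311 and 664 CPM (1.09). These 4 were past 2-fold, and with equal weight for each cell Lef1 (0.86), Satb1 (0.90) and Ly6c2 (0.99) were not.

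S1pr1, the receptor through which T cells leave lymph nodes, lay just below that limit, at 51.9 and 103 CPM (0.98). Tcf7, the transcription factor TCF1 of naive and stem-like T cells, was at 172 and 323 CPM (0.90). Il7r (0.13) and Ccr7 (0.20), both receptors of naive T cells, were near equal in summed level, and Cd27 had a negative log2 ratio of −0.32.

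The share of cells with Ccr7 was higher in treated cells, although its summed level was near equal. It was detected in 10.9% (9.10 to 12.9%) of untreated and 16.8% (15.0 to 18.7%) of treated T gate cells, a ratio of 1.54 (1.26 to 1.89), and in 6.71% and 11.0% after thinning to 2000 UMIs. In the macrophage gate, the shares were 2.15% and 1.81%, at median depths of 7354 and 5345 UMIs. Klf2 was detected in 20.3% and 36.1% of T gate cells, or 13.5% and 26.8% after thinning, but macrophages express it too, with 25.5% and 32.3%.

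Of 12 Treg genes listed, 11 had enough UMIs, all 11 with a log2 ratio at or below 0, and the median was −0.63 (−0.66 to −0.39 over 9 ways of processing). Foxp3, the lineage factor of Treg cells, was at 86.1 and 37.4 CPM, with a log2 ratio of −1.20 (−1.42 to −0.99). Ccr8, a chemokine receptor of tumor Treg cells, was at 82.4 and 32.8 CPM (−1.33, −1.56 to −1.10). Both were more than 2-fold lower.

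A Foxp3 UMI was detected in 11.3% (9.53 to 13.4%) of untreated and 5.21% (4.18 to 6.40%) of treated T gate cells, a ratio of 0.459 (0.352 to 0.598). After thinning the shares were 10.5% and 4.57%, and in the macrophage gate they were 0.414% and 0.219%. The other Treg genes were not past 2-fold. Tnfrsf4, which encodes OX40, was at 260 and 142 CPM (−0.87), while Il2ra, the high-affinity chain of the IL-2 receptor, was at 237 and 206 CPM (−0.21).

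Of 12 genes of inhibitory receptors and exhaustion, 11 had a log2 ratio below 0, 1 was past 2-fold and the median was −0.57 (−0.72 to −0.52). Pdcd1, which encodes PD-1, was at 403 and 196 CPM (−1.04), and it was past 2-fold in 4 of 9 ways of processing. Ctla4 was at 1037 and 528 CPM (−0.97), Tigit at 281 and 153 CPM (−0.87), and Tox, the nuclear factor of chronically stimulated T cells, at 1046 and 592 CPM (−0.82). Lag3 was close to equal (−0.26) and Cd160 was not lower (0.08). A Pdcd1 UMI was detected in 51.0% and 27.2% of T gate cells, in 40.4% and 25.3% after thinning, and in 0.884% and 0.570% of macrophage gate cells.

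Effector genes were mixed. Of 18 cytotoxic and type 1 genes, 14 had a log2 ratio below 0 and 4 above it, with a median of −0.34. Gzma, which encodes granzyme A, was at 40.5 and 153 CPM (1.91, 1.71 to 2.12), with a log2 ratio of 2.09 in CD8 and −1.18 in CD4 cells. Gzma is also a marker of natural killer cells, and 7 such markers, with Gzma among them, summed to 307 and 453 CPM in the gate. Ccl3, a chemokine secreted by activated T cells, was at 555 and 265 CPM (−1.07, −1.15 to −0.98), and its relatives Ccl4, at 1200 and 614 CPM (−0.97), and Ccl5, at 2668 and 1596 CPM (−0.74), lay in the same direction. Gzmb (−0.12), Prf1, which encodes perforin (−0.34), and Ifng (−0.46) were not past 2-fold.

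**Figure D3:**
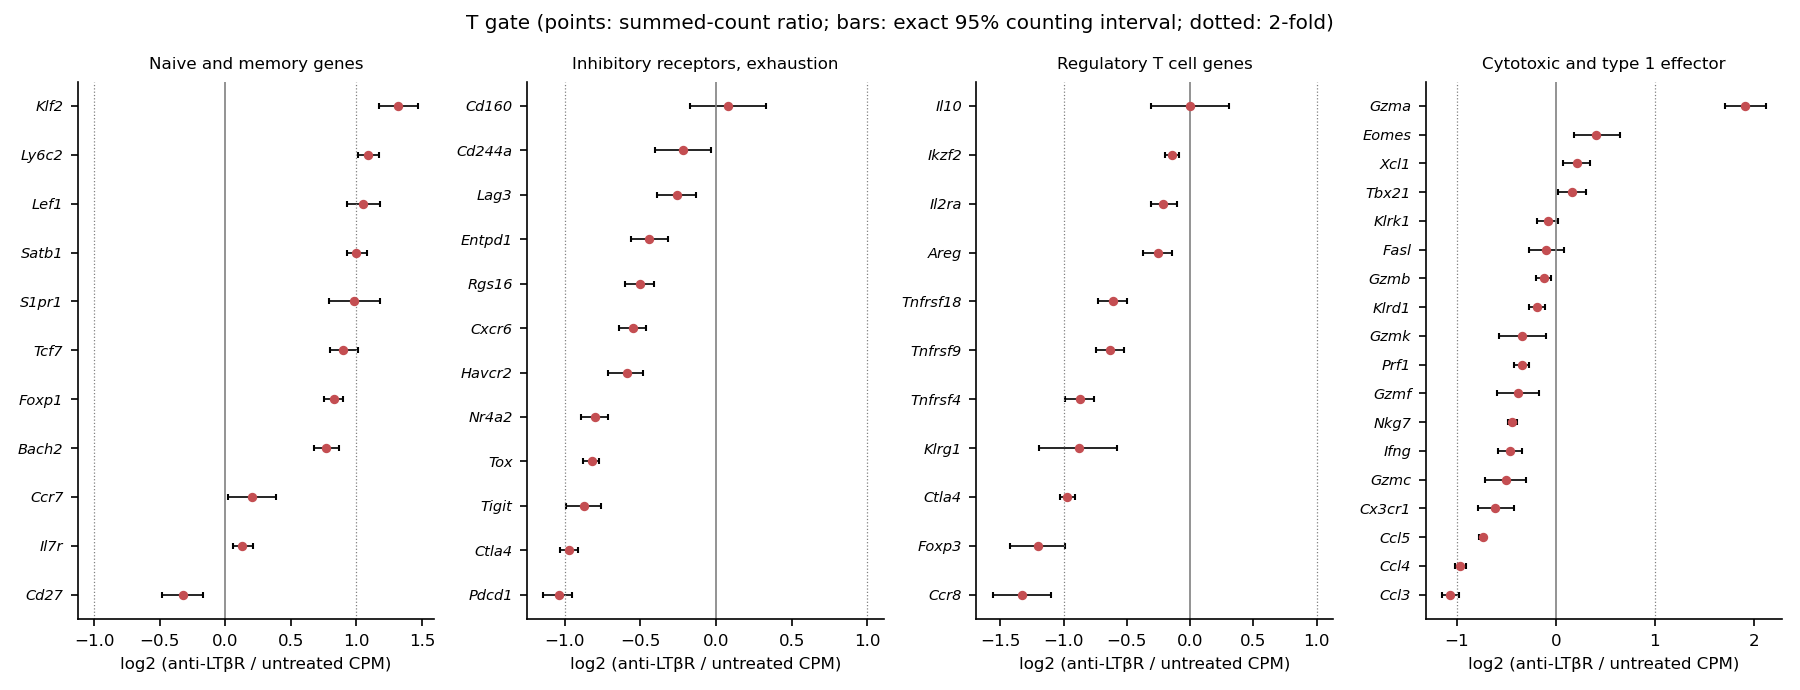
Log2 ratios (anti-LTβR over untreated CPM) of naive and memory, inhibitory receptor, Treg and cytotoxic genes in the T gate, with 1093 untreated and 1632 treated cells. Points are ratios of summed counts, bars exact 95% counting intervals and dotted lines 2-fold; 10 of the 11 naive and memory genes plotted lie above 0, and 11 of 12 inhibitory receptor and exhaustion genes lie below it.

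Helper T cell genes did not follow a common direction. Of 8 follicular helper T genes with enough UMIs, 0 were past 2-fold and the median was −0.34; Bcl6, their lineage factor, was at 36.1 and 58.2 CPM (0.69) and Icos, their costimulatory receptor, at 594 and 437 CPM (−0.44). Of 8 listed TH2 genes, 4 had enough UMIs. Il13 was at 28.3 and 59.5 CPM (1.07) and Il5 at 58.9 and 8.66 CPM (−2.76), but 39% of Il13 UMIs and 98% of Il5 UMIs came from a single cell each, so neither is read as a level of the group. Gata3, the TH2 lineage factor, was at 74.2 and 83.2 CPM (0.17). Il17a was at 45.8 CPM in both libraries, with 28% of its UMIs in a single cell.

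The TNF superfamily, to which the ligands of LTβR belong, was also read in T cells. Ltb, the membrane anchor of lymphotoxin, was at 288 and 264 CPM (−0.13). Tnfsf11, which encodes RANKL, was at 27.6 and 62.6 CPM (1.18, 0.92 to 1.45) and was the 1 gene past 2-fold among 8 with enough UMIs. Lta and Tnfsf14, the other ligands, had fewer than 200 UMIs in this gate. None of the 19 NF-κB pathway genes with enough UMIs was past 2-fold, with a median of 0.11.

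The rule named 8 higher and 8 lower genes in T cells. Kcnma1, a potassium channel, was at 5.96 and 29.6 CPM (2.30, 1.79 to 2.87). Igfbp4, a growth factor binding protein, was at 12.6 and 40.6 CPM (1.68), and Pde2a, which degrades cyclic nucleotides, at 41.2 and 115 CPM (1.47). Cmah, a sialic acid hydroxylase, was at 60.9 and 148 CPM (1.28), with a log2 ratio of 2.09 in CD8 and 0.20 in CD4 cells. Dapl1 was at 10.2 and 29.3 CPM (1.51), Ntrk3, a neurotrophin receptor, at 8.85 and 26.5 CPM (1.57), and the heat shock gene Hspa1b at 10.6 and 32.5 CPM (1.62). The eighth was Klf2. Igfbp4 had a log2 ratio of 0.65 over all deposited barcodes. Hspa1b had a log2 ratio of 0.49 among T gate cells with no UMI of Csf1r, S100a8, S100a9, Cd79a or Jchain.

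The lower genes were Foxp3, Ccr8 and Ccl3, given above, and 5 others. Klrh1, a killer cell lectin-like receptor, was at 211 and 71.4 CPM (−1.56). Itgb8, the integrin chain that activates latent TGFβ, was at 109 and 37.7 CPM (−1.53, −1.74 to −1.32), Tmprss6, a membrane protease, at 59.1 and 21.6 CPM (−1.45), and Atp2b2, a calcium pump, at 47.7 and 18.0 CPM (−1.40). Itih5 was at 42.6 and 16.2 CPM (−1.39). The 8 higher genes and 7 of the 8 lower genes lay on the same side in CD8 and in CD4 cells, and 4 and 5 of them were past 2-fold in both. The remaining gene, Klrh1, had 0 UMIs in the CD4 cells of both libraries. Kcnma1, counted among the higher genes, had 0 UMIs in the untreated CD8 and CD4 cells. It was detected in 0.640% of untreated and 2.27% of treated T gate cells. Foxp3 had a log2 ratio of −2.30 in CD8 and −1.31 in CD4 cells, and Klf2 1.90 and 1.32.

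Transcripts of other lineages were present in the T gate, and their part in these values was not tested. A set of 9 neutrophil markers summed to 65.2 CPM in the untreated and 304 CPM in the treated gate, with Ly6g at 0 in both, and 10 macrophage markers to 2297 and 2222 CPM. A set of 6 fibroblast markers summed to 9.02 and 81.3 CPM, but 96.9% of the treated Col1a1 UMIs and 92.1% of the Col1a2 UMIs came from a single cell, and Col1a1 was detected in 1.83% and 0.613% of gate cells. Of the 7 natural killer cell markers, Ncr1 was at 6.13 and 17.0 CPM, Klrb1c at 44.8 and 84.1 CPM, Klra8 at 2.04 and 8.24 CPM and Klra4 at 1.36 and 7.12 CPM, while Klre1 was at 148 and 134 CPM and Klri2 at 64.2 and 50.4 CPM. A Csf1r UMI was detected in 10.2% and 11.6% of T gate cells and an Ighm UMI in 24.9% and 41.1%.

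In macrophages and monocytes, 3 of 15 inflammatory cytokine genes, with Il6 among them, were more than 2-fold higher after anti-LTβR and 1 was more than 2-fold lower. Complement C1q, cholesterol synthesis and cell cycle genes had log2 ratios below 0, none past 2-fold. Of 10659 genes with enough UMIs, 157 (1.47%) were more than 2-fold higher and 30 (0.281%) more than 2-fold lower. Fewer cells carried mature macrophage genes. A UMI of C1qa, the first chain of C1q, was detected in 68.6% (67.0 to 70.1%) and 52.8% (51.7 to 54.0%) of gate cells, and in 66.0% and 50.4% after thinning. Adgre1, which encodes F4/80, was detected in 63.7% and 44.0%, or 37.2% and 26.0% after thinning. In the T gate the same genes were detected in 12.8% and 8.27%, and in 7.87% and 5.02%.

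Ccr2, the receptor through which monocytes enter tissue, was instead more common in treated cells. It was detected in 58.8% and 65.0% of gate cells, or 46.9% and 55.2% after thinning. In summed level Ccr2 was at 491 and 639 CPM (0.38) and the monocyte gene F13a1 at 472 and 678 CPM (0.52), whereas Ly6c2 was equal at 206 and 209 CPM (0.02). Of 14 monocyte genes, 12 had a log2 ratio above 0 and 2 were past 2-fold, with a median of 0.34 against −0.04 over all genes of the gate. Those past 2-fold were Chil3, a chitinase-like secreted protein, at 59.0 and 165 CPM (1.49), and Ace, a gene of patrolling monocytes, at 6.15 and 17.0 CPM (1.47).

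Of 16 listed cytokine and inflammatory mediator genes, 15 had enough UMIs, 12 of them with a log2 ratio above 0, and the median was 0.72 (0.65 to 0.76 over 9 ways of processing). Il6 was at 19.3 and 75.1 CPM, with a log2 ratio of 1.96 (1.83 to 2.09). Il23a, a subunit of IL-23, was at 2.36 and 7.60 CPM (1.68), and Nos2, the inducible nitric oxide synthase, at 129 and 298 CPM (1.20, 1.15 to 1.26). These 3 were more than 2-fold higher. Il12b was at 16.5 and 3.18 CPM (−2.37), but 55% of its untreated UMIs came from a single cell, and its log2 ratio after thinning was −0.51.

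More abundant mediators had log2 ratios above 0 that did not reach 2-fold. Il1b was at 2959 and 4918 CPM (0.73), Osm, which encodes oncostatin M, at 529 and 877 CPM (0.73), and Ptgs2, the inducible cyclooxygenase, at 377 and 689 CPM (0.87). Tnf was at 60.2 and 74.5 CPM (0.31). An Il6 UMI was detected in 4.20% (3.57 to 4.90%) of untreated and 9.25% (8.58 to 9.96%) of treated gate cells, in 2.24% and 5.93% after thinning, and in 0.823% and 1.41% of T gate cells.

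Chemokine genes split. Of 19, 10 had a log2 ratio above 0 and 9 below it, with a median of 0.00. Ccl24, which attracts eosinophils, was at 36.6 and 115 CPM (1.65, 1.56 to 1.75), and Cxcl1, which attracts neutrophils, at 2.43 and 8.10 CPM (1.73, 1.37 to 2.13). Both were more than 2-fold higher. A Cxcl1 UMI was detected in only 0.414% (0.232 to 0.683%) of untreated and 0.658% (0.480 to 0.879%) of treated gate cells, so its level rests on few cells. Cxcl2, a neutrophil attractant made at far higher levels, was at 1658 and 2848 CPM (0.78). Cxcl9, which attracts T cells through CXCR3, was at 723 and 526 CPM (−0.46), Ccl7 at 436 and 299 CPM (−0.54), and Cxcl14 at 44.5 and 25.4 CPM (−0.81).

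NF-κB, the factor downstream of LTβR, had a narrow pattern in this gate. None of the 20 pathway genes was past 2-fold, and the median was 0.29 (0.28 to 0.35). The intervals of 14 lay above 0 and of none below it. Counting intervals are narrow at these sums, and those of 15 of 16 hypoxia and glycolysis genes lay above 0 too. The share over all genes of the gate was not counted. Nfkbia, the inhibitor that NF-κB itself induces, was at 572 and 901 CPM (0.65). Traf3, the adaptor that marks NIK for degradation, was at 227 and 311 CPM (0.46), and Nfkb2, the precursor of p52, at 47.0 and 63.5 CPM (0.43). Relb (0.22) and Ltbr, at 41.8 and 46.9 CPM (0.17), were close to equal, as was Map3k14 (−0.01).

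Sequences from 120 bases before the transcription start of Il6, Cxcl1 and Nfkbia are shown because these are the cytokine, chemokine and pathway genes with the high log2 ratios above whose promoters hold the NF-κB consensus. Promoters of Il23a, Nos2 and Ccl24, also past 2-fold, were not searched. The sequences shown are RefSeq sequences of build GRCm38.p6, read 5′ to 3′ on the strand of the gene, and capitals mark the match, found on either strand. The intervals are chr5:30012994-30013113 for Il6 and chr5:90891125-90891244 for Cxcl1, both on the plus strand, and chr12:55492648-55492767 for Nfkbia, on the minus strand.
Il6: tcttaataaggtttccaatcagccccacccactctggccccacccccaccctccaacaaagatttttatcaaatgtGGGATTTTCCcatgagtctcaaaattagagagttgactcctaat
Cxcl1: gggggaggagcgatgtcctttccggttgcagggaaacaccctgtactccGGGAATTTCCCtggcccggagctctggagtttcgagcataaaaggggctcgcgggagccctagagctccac
Nfkbia: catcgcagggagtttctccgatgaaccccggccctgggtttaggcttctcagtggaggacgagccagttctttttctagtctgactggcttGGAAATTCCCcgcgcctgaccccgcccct
The matches begin 44, 71 and 29 bases before the start. That of Cxcl1 is 2 overlapping matches over 11 bases. In windows from 250 bases before to 50 bases after the start, the consensus was found in 2211 of 27025 mouse promoters (8.18%), in 2 of 11 promoters of the cytokine list (Il6 and Tgfb1), in 5 of 13 of the chemokine list (Ccl9, Cxcl1, Cxcl10, Cxcl2 and Cxcl3) and in 7 of 16 of the pathway list. These genes were picked after their values were seen, and a match describes letters only.

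**Figure D4:**
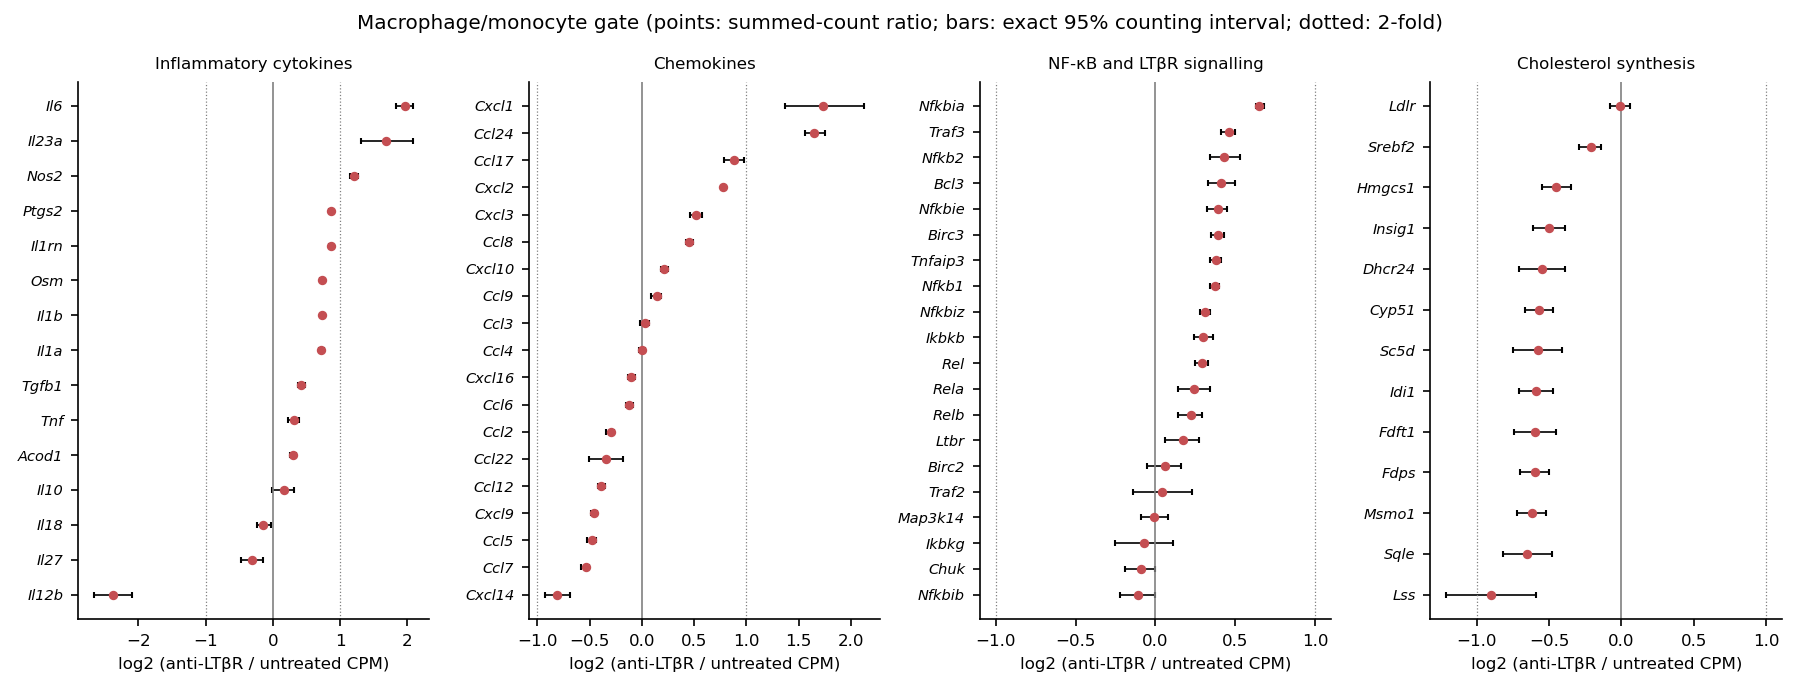
Log2 ratios (anti-LTβR over untreated CPM) of cytokine, chemokine, NF-κB pathway and cholesterol synthesis genes in the macrophage and monocyte gate, with 3620 untreated and 6841 treated cells. Points are ratios of summed counts, bars exact 95% counting intervals and dotted lines 2-fold; the cytokine list has a median of 0.72, and all 13 cholesterol synthesis genes plotted lie below 0.

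Genes with metabolic and scavenging roles differed by pathway. All 14 cholesterol synthesis genes had a log2 ratio below 0, none past 2-fold, with a median of −0.57 (−0.61 to −0.52). Sqle, an early oxygenase of the pathway, had a log2 ratio of −0.65. Of 16 hypoxia and glycolysis genes, 15 lay above 0 with a median of 0.30, among them Egln3 (0.86) and Hilpda (0.80). Slc7a11, the cystine transporter, was at 179 and 401 CPM (1.16), the 1 gene past 2-fold among 12 redox genes.

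The C1q chains had similar log2 ratios. C1qa was at 2400 and 1479 CPM (−0.70), C1qb at 2530 and 1659 CPM (−0.61) and C1qc at 1996 and 1332 CPM (−0.58). Apoe, the lipid carrier of mature macrophages, was at 5367 and 3498 CPM (−0.62), and Trem2, a lipid receptor, at 188 and 126 CPM (−0.58). In the same group Gpnmb, a lysosomal glycoprotein, was at 15.3 and 35.3 CPM (1.20, or 0.86 after thinning).

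Markers of alternative activation were not lower. Cd163, the hemoglobin scavenger receptor, was at 3.55 and 11.4 CPM (1.68), and Mgl2, a lectin, at 195 and 296 CPM (0.60), while Mrc1 (−0.07), which encodes the mannose receptor, was near equal. Matrix genes had a median of 0.36 over 14, with Mmp9, a gelatinase that neutrophils also make, at 2.80 and 9.94 CPM (1.82, or 0.77 after thinning) and Timp1, a protease inhibitor, at 21.9 and 42.1 CPM (0.94). Of 15 cell cycle genes, 15 had a log2 ratio below 0, with a median of −0.40. A UMI of Mki67 was detected in 16.2% and 10.9% of gate cells, or 7.29% and 4.51% after thinning. In the T gate Mki67 was detected in 19.0% and 11.5%, or 12.0% and 9.24%.

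Interferon and class II genes had medians close to 0 in macrophages, with members on both sides. The 29 interferon-stimulated genes had a median of −0.13, 16 genes of the IFNγ response −0.04 and 12 MHC class II genes 0.01. Of the interferon-stimulated genes, 21 had a log2 ratio below 0 and 8 above it, with the lowest at −0.96. The IFNγ response genes ran from −0.68 to 1.20, and the highest of them, Nos2, given above, was past 2-fold.

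The rule named 8 higher genes in this gate, led by P3h2, a collagen-modifying hydroxylase, at 0.820 and 7.17 CPM (3.10, 2.53 to 3.79). Areg, which encodes the growth factor amphiregulin, was at 13.2 and 59.9 CPM (2.18, 2.02 to 2.34, or 0.96 over all deposited barcodes), and Inhba, a subunit of activin A, at 131 and 396 CPM (1.60, 1.55 to 1.65). Saa3, an acute phase protein, was at 19.6 and 68.7 CPM (1.81, 1.68 to 1.94). Lyz1, a lysozyme, was at 11.4 and 44.7 CPM (1.97) and Asgr2, a lectin, at 1.33 and 5.88 CPM (2.13). Il6 and Ccl24 complete the set.

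Of the 8 higher genes, 7 were past 2-fold both in cells with and in cells without a C1qa UMI. The exception was Ccl24, at a log2 ratio of 3.28 with and −0.01 without C1qa. Il6 was at 2.37 and 1.16, and Areg at 2.40 and 1.62. An Inhba UMI was detected in 12.4% and 23.2% of gate cells and in 8.07% and 17.0% after thinning, against 1.65% and 4.17% of T gate cells. For Areg the shares were 2.54% and 5.17% of gate cells, against 10.6% and 9.31% of T gate cells, where it was more common.

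The 8 lower genes were led by Gbp2b, an interferon-inducible GTPase, at 53.6 and 22.5 CPM (−1.25, −1.37 to −1.13). Siglec1, the sialic acid receptor CD169 of tissue macrophages, was at 63.0 and 31.6 CPM (log2 interval −1.10 to −0.89), and Tgfb3, a TGFβ ligand, at 65.3 and 32.9 CPM (−0.99). Cadm1, an adhesion molecule, was at 152 and 73.9 CPM (−1.04). The adhesion genes Negr1, at 31.9 and 14.3 CPM (−1.16), and Fat3, at 8.95 and 3.68 CPM (−1.28), were lower too, as were Tmem171, at 26.1 and 12.5 CPM (−1.07), and Rapgef5, an exchange factor, at 16.6 and 7.70 CPM (−1.11). All 8 lay below 0 with and without C1qa, and 0 were past 2-fold in both.

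Immunoglobulin transcripts were higher in this gate too. All 9 constant genes with enough UMIs were more than 2-fold higher, with a median of 3.77. An Ighm UMI was detected in 22.8% and 32.6% of gate cells, a Cd79a UMI in 0.387% and 1.10%, and 10 B and plasma cell markers summed to 61.1 and 397 CPM. In gate cells with no UMI of S100a8, S100a9, Cd79a, Jchain, Trac or Cd3d, the list median was 1.26. A set of 9 neutrophil markers summed to 165 and 307 CPM in the gate, which excludes Cxcr2 by its rule.

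Over all kept cells, 221 of 12411 genes (1.78%) were more than 2-fold higher and 107 (0.862%) more than 2-fold lower, with a median log2 ratio of −0.06. B cell genes led the higher side. Pax5 was at 0.919 and 9.79 CPM (3.40, 2.97 to 3.89), and Fcmr, the Fc receptor for IgM, at 0.449 and 2.84 CPM (2.63). Further named higher genes were Retnlg, a resistin-like gene of neutrophils, at 20.3 and 93.9 CPM (2.21, 2.11 to 2.31), and Lyz1, at 7.39 and 31.5 CPM (2.09).

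The named lower genes were Xcr1, Klrh1, Galnt18, Gpr33 and Car8. Xcr1, the chemokine receptor of cross-presenting DC, was at 21.8 and 7.52 CPM (−1.54, −1.69 to −1.38), and Klrh1 at 29.0 and 7.94 CPM (−1.87). Galnt18, a glycosyltransferase, was at 15.9 and 4.75 CPM (−1.74), Gpr33, an orphan receptor, at 5.30 and 1.47 CPM (−1.85), and Car8 at 4.04 and 1.14 CPM (−1.82). A set of 11 dendritic cell markers as a whole summed to 707 and 592 CPM, of which Bst2 took 413 and 339 CPM. Its members lay on both sides of 0, with Siglech at 21.2 and 10.1 CPM (−1.08) and Ccl17 at 40.3 and 68.5 CPM (0.77, 0.69 to 0.84).

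Chemokines of lymphoid organization are made chiefly by stromal cells, which a CD45+ sort leaves out. Ccl19 and Ccl21a were near the counting floor in both libraries, with 3 and 5 UMIs over all untreated cells. The receptor Cxcr5, which guides B cells and follicular helper T cells to CXCL13, was at 3.25 and 7.68 CPM (1.24, 0.98 to 1.51) and was the 1 gene past 2-fold among 8 of the lymphoid homing list with enough UMIs, whose median was 0.21. Its ligand Cxcl13, with fewer than 200 UMIs, was at 1.82 and 0.498 CPM (−1.85, −2.49 to −1.28), and 49.4% of the UMIs of the untreated library came from a single cell. Sums over all cells do not separate more cells of a type from more RNA per cell.

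The combination library against the STING agonist library is the only other pair in the series that differs by anti-LTβR, and it shares no library with the pair above. In that pair all mice also had ADU-S100 injected into the tumor. Leaving out immunoglobulin and T cell receptor genes, 60 genes that were past 2-fold higher in the B and plasma gate had enough UMIs there, and 49 of them (81.7%) were also higher, against 62.9% of all genes in the gate. For genes past 2-fold lower it was 13 of 14 (92.9%), against 37.1% of all genes. Bank1 had a log2 ratio of 1.38 in that pair.

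T cells and macrophages were less alike between the pairs. In the T gate 19 of 40 higher genes (47.5%, against 50.2% of all genes) and 7 of 11 lower genes (63.6%, against 49.8%) lay on the same side. Foxp3 was lower there too (−1.72) and Klf2 was not higher (−0.31). In the macrophage gate 50 of 111 higher genes (45.0%, against 68.2%) and 13 of 22 lower genes (59.1%, against 31.8%) did so. Of the 111, 27 were past 2-fold on the same side and 22 in the opposite direction. Of all genes in the gate, 2.04% were past 2-fold higher and 0.916% past 2-fold lower in that pair. Il6 had a log2 ratio of −0.89, Areg of −0.93, Inhba of −1.23 and Saa3 of −1.78 in that pair, while Lyz1 (3.74) and Asgr2 (3.49) lay on the same side as above. Whether the pairs differ could not be tested with 1 library per group.

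**Figure D5:**
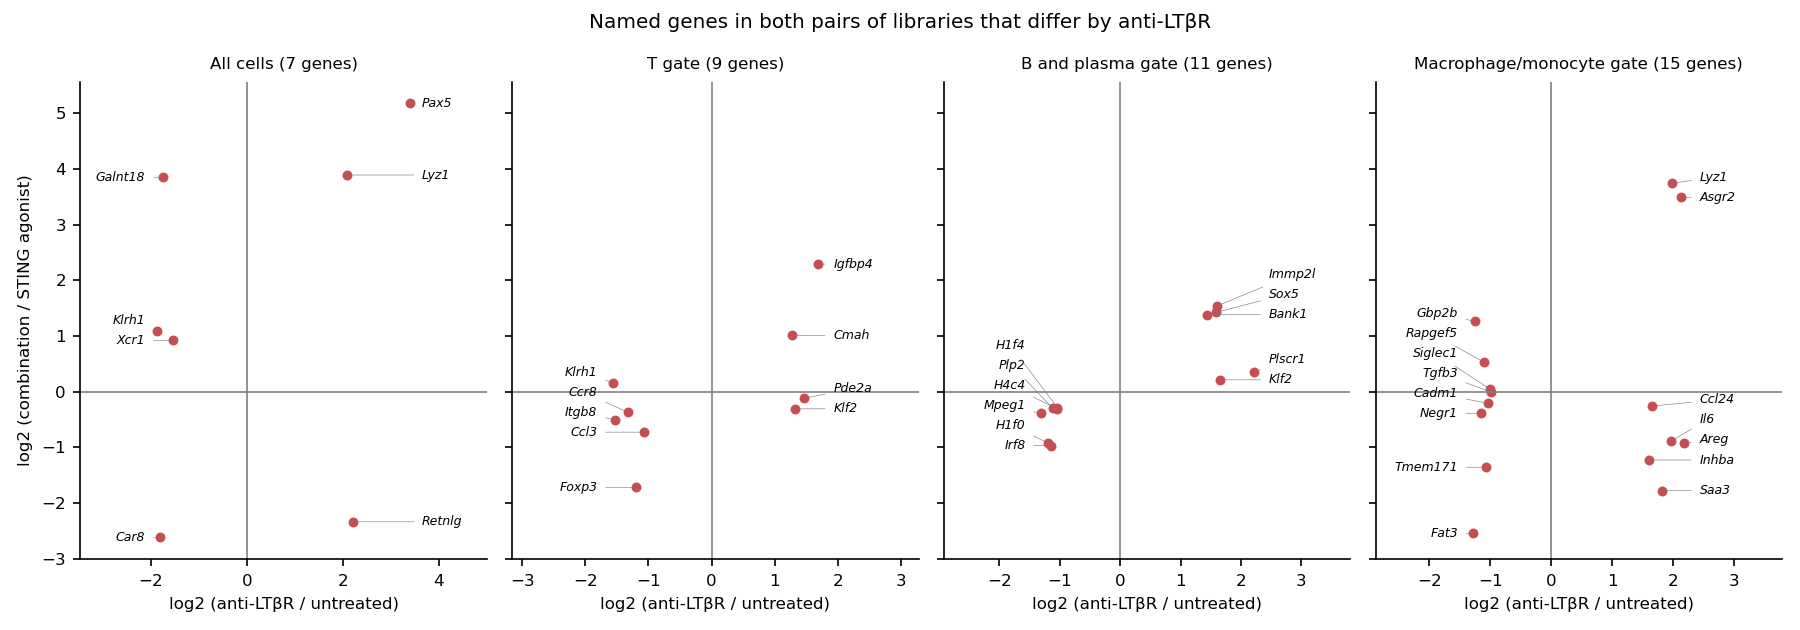
Log2 ratios of the named genes between anti-LTβR and untreated libraries (horizontal axis) and between combination and STING agonist libraries (vertical axis), over all cells and in each gate, for genes with enough UMIs in both pairs. Points in the upper right and lower left lie on the same side in both pairs; all 11 B and plasma gate genes plotted do, against 7 of 15 in the macrophage and monocyte gate.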

How the data were processed

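The series has 4 single-cell RNA libraries of sorted CD45+ cells, and those labelled untreated and LTbR agonist were compared. The deposited matrices hold raw UMI counts per gene and cell for 33696 features, which the authors made with Cell Ranger against mm10. The file headers name version 8.0.1, whereas the labels and methods name 7.1.0, and the labels name a later 5′ kit than the methods. The authors' limits on genes and mitochondrial counts were applied. Counts were summed over the cells of a gate and scaled to CPM, without immunoglobulin genes in the total of the B and plasma gate. Log2 ratios had 0.5 UMI added to each sum and exact binomial 95% intervals; CPM had exact Poisson intervals, shares exact Clopper-Pearson intervals and ratios of shares log-normal intervals. Genes with at least 200 UMIs over both libraries were read, and called past 2-fold. Since a group is 1 library, no test or p-value was computed.

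In each gate, the rule for named genes ranked genes by the interval bound nearest 0 and took 8 per direction, or 5 over all cells, without immunoglobulin, T cell receptor, mitochondrial, ribosomal, sex-linked and predicted genes, gate genes and markers of other lineages. Named genes and 34 gene lists were chosen with earlier results of these data known. Values of a few listed and named genes, and 1 allele of the tumor line, are not reported here, though counts and medians over lists include those genes. Alternatives were edgeR 4.0.16 TMM factors in R 4.3.3, all deposited barcodes, other gates, other minimums and folds, cells weighted equally, thinning to 2000 UMIs, removal of the 3 highest cells of each gene and of cells with the highest scores of Scrublet (scanpy 1.11.5), whose automatic threshold marked 0 and 1 cells. Doublets were otherwise kept. Cells with transcripts of 1 lineage only, as listed beside their values, and lists without the genes of a gate were alternatives added after the data were seen. Scripts ran in Python 3.11.15 with numpy 2.4.6, scipy 1.17.1 and pandas 2.3.3 and were tested on simulated counts. Promoters are RefSeq sequences, GRCm38.p6.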

Additional observations from a re-analysis of the deposited data

Results flagged for a closer look

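The ratio between the library with anti-LTβR and the library without it lay in opposite directions in the absence and presence of the STING agonist for 6 named genes, each past 2-fold in both pairs of libraries. These differences between the pairs were not tested, and each group being 1 library of pooled tumors, treatment and library cannot be told apart. Over all cells, Retnlg had a log2 ratio of 2.21 for anti-LTβR over untreated and of −2.34 for combination over STING agonist, where it was at 76.2 and 387 CPM. Klrh1 had −1.87 and 1.08, with 8.51 CPM in the combination and 4.02 CPM in the STING agonist library. Galnt18 had −1.74 and 3.85, with 4.18 and 0.283 CPM. In the macrophage and monocyte gate, Saa3 had 1.81 and −1.78, with 48.9 CPM in the combination and 168 CPM in the STING agonist library, and Inhba had 1.60 and −1.23, with 281 and 658 CPM. Gbp2b had −1.25 and 1.26, with 33.1 and 13.8 CPM.

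Ighm, the IgM heavy chain, differed between gates. Its log2 ratio was 1.78 in the B and plasma gate and −1.02 in the T gate, where the sign changed in 5 of 9 ways of processing and was 0.86 among T gate cells with no UMI of Csf1r, S100a8, S100a9, Cd79a or Jchain. This difference was not tested either.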

How the results depend on the processing

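Counts of genes past 2-fold, higher and lower with anti-LTβR, were 221 and 107 over all cells, 74 and 44 in the T gate, 141 and 47 in the B and plasma gate and 157 and 30 in the macrophage gate. With at least 50 UMIs in place of 200, which tests more genes, the higher counts were 408, 216, 404 and 321 and the lower counts 267, 131, 145 and 120 in this order. With a 1.5-fold limit the higher counts were 498, 278, 334 and 416 and the lower counts 413, 187, 100 and 258. Thinned to 2000 UMIs, which leaves out 1635 untreated and 3583 treated cells, the higher counts were 96, 23, 39 and 60 and the lower counts 72, 9, 23 and 27. All deposited barcodes gave 88 lower genes in the T gate, 110 in the B and plasma gate and 105 in the macrophage gate. Equal weight for each cell gave 71 lower genes in the macrophage gate. Leaving out the 3 highest cells of each gene gave 344 higher and 24 lower genes in the B and plasma gate. Among single-lineage cells, chosen after seeing the data, 47 genes were higher in the T gate and 104 in the macrophage gate. The T gate share ratio of 0.827 was 0.667 with stricter gates, the B and plasma ratio of 3.79 was 1.31 with 1 gate gene, and the macrophage ratio of 1.05 was 1.11 after thinning and 0.958 with stricter gates. In the B and plasma gate, Mpeg1 reversed from −1.32 to 0.71 after thinning and 1.90 among single-lineage cells, Irf8 from −1.15 to 0.46 and 1.49, and H4c4 from −1.04 to 0.18 without its 3 highest cells. The cause was not tested. TMM factors would shift log2 ratios by 0.07 over all cells and 0.04 in the macrophage gate. Of the values of named genes, 64 of 80 over all cells, 125 of 144 in the T gate, 103 of 144 in the B and plasma gate and 115 of 144 in the macrophage gate stayed within their counting interval. No paired analysis was possible because each group had 1 library. In the B and plasma gate the 62 untreated cells limit the precision, at a median of 15656 UMIs per cell.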

Other observations

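Leaving out immunoglobulin and T cell receptor genes, 12 of the genes past 2-fold in T cells and in macrophages lay on the same side in both gates. They include Slc7a11, the cystine transporter, S100a8 and S100a9, the calprotectin subunits of neutrophils, Nos2, Inhba, Gzma and Cmah. S100a8 was detected in 1.19% and 2.51% of untreated and treated T gate cells and in 3.51% and 4.91% of macrophage gate cells, and the part of other lineages in these shared values was not tested.

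Most immediate early and heat shock genes had a log2 ratio above 0 in each gate. Their median log2 ratio was 0.37 over 16 genes in the T gate, 0.53 over 12 genes in the B and plasma gate and 0.32 over 16 genes in the macrophage gate. In T cells Fos was at 263 and 489 CPM (0.90) and Egr1, induced by antigen receptor signals, at 66.7 and 112 CPM (0.74). Hspa8, the constitutive heat shock protein, was at 961 and 909 CPM (−0.08). Past 2-fold were Hspa1a in the T gate, at 10.2 and 36.2 CPM (1.82, or 0.18 after thinning), Hspa1b there, given above, and Ier3 in the B and plasma gate (1.08), which reached −0.60 over all deposited barcodes.

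The survival factors for B cells did not move together outside the B lineage. Tnfsf13b, which encodes BAFF, was at 51.0 and 35.2 CPM in the macrophage gate (−0.54, −0.64 to −0.43) and at 39.1 and 25.7 CPM over all cells (−0.61). Tnfsf13, which encodes APRIL, was at 39.4 and 43.5 CPM in the macrophage gate (0.14), with a log2 ratio of 0.14 (0.04 to 0.24) over all cells. Of 12 growth factor and cytokine receptors listed for macrophages, 7 had a log2 ratio above 0, 5 below it and 0 were past 2-fold, with a median of 0.10, or 0.05 without Csf1r, which chose the cells. The lowest was Tgfbr1, a TGFβ receptor, at 317 and 203 CPM (−0.65), and Tgfbr2 was at 135 and 98.8 CPM (−0.45). The highest was Csf2rb, a shared chain of the GM-CSF and IL-3 receptors, at 362 and 474 CPM (0.39).

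Genes of memory B cells were read for 4 of 10 listed members. Cd80, a costimulatory ligand, was at 48.8 and 114 CPM (1.20) and was past 2-fold in 5 of 9 ways of processing, and Cd38 was at 47.0 and 118 CPM (1.30). Of 10 germinal center genes, 2 had enough UMIs, so that program was not measurable at this depth. Mki67 was detected in 32.3% of untreated and 29.2% of treated cells of the B and plasma gate, and the interval of their ratio, 0.614 to 1.34, holds 1.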
